A study of Mus musculus with 48 samples.

Results

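The urea cycle genes are the 7 genes Nags, Cps1, Otc, Slc25a15, Ass1, Asl and Arg1, taken by symbol from a count table of 22354 genes, where each symbol named 1 row. They were followed in liver RNA of mice with a conditional deletion of Bmal1 (symbol Arntl), an activating transcription factor of the circadian clock, and of littermate controls. The knockout mice, called KO, carried 2 floxed Bmal1 alleles and a Cre recombinase driven by the aP2 promoter, a driver used for fat cells. Their littermate controls, called WT, are labelled wild type, and the sources used here do not say whether they carried floxed alleles without Cre. All mice were on a C57BL/6 background, had spent 36 h in constant darkness and were killed in darkness at 0, 4, 8, 12, 16 or 20 h after collection began. The 48 libraries came from separate mice: 23 KO and 25 WT, with 4 in each group except 16 h, where the labels give 3 KO and 5 WT while the design text gives 4 of each.

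The design text describes male mice aged 4 to 6 months. Every library nevertheless held between 3029 and 13969 counts of Xist, the RNA of the female inactive X, while Eif2s3y, Kdm5d and Uty from the Y chromosome summed to 1 count apiece over the series. This goes against the stated sex, and it held in the libraries of both genotypes alike. Otc is an X-linked gene. The labels name the tissue as liver and the cell type as adipocyte. The summed level of 7 detected hepatocyte markers was 22020 to 53811 CPM (counts scaled to a common library size) in KO and 27880 to 52153 CPM in WT, and that of 6 adipocyte markers was 6.18 to 84.9 CPM in KO and 8.99 to 47.0 CPM in WT. Arntl averaged 18.1 ± 13.2 CPM in KO (SD, n = 23) and 18.4 ± 14.1 CPM in WT (SD, n = 25). These averages and SDs pool all times, and the level changed with time. Group means ran from 3.68 (8 h) to 32.4 (0 h) in KO, and from 2.02 (12 h) to 37.0 (0 h) in WT. The KO mean was the lower one at 4 h (9.54, against 21.1 in WT). It was the higher one at 12 h (6.34, against 2.02) and 16 h (26.3, against 16.2). Tests of Arntl at single times are not given here. None of these liver values checks a deletion aimed at fat. Totals without albumin were 12841969 to 13009797 counts per library. The libraries KO_0h replicate 2 (pancreas markers, up to 251 CPM), WT_0h replicate 3 (adrenal markers, up to 99.0 CPM) and KO_16h replicate 2 stood apart. In the last, Lepr, which encodes the leptin receptor, reached 5936 counts, against at most 847 in any other library.

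The urea cycle turns ammonia, which is toxic, into urea for excretion, and its full set of enzymes works in the hepatocytes around the portal vein. The first steps run in mitochondria: N-acetylglutamate synthase (Nags) makes the obligatory activator of carbamoyl phosphate synthetase (Cps1), and ornithine transcarbamylase (Otc) joins carbamoyl phosphate to ornithine. The carrier Slc25a15 exchanges ornithine and citrulline across the inner mitochondrial membrane, and argininosuccinate synthase (Ass1), argininosuccinate lyase (Asl) and arginase (Arg1) complete the cycle in the cytosol.

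RefSeq promoters (GRCm38.p6, 250 bases before to 50 after an annotated start) matched 4 of the 7 genes by symbol: Ass1, Slc25a15 with 2 starts, Nags and Otc. They were searched for the E-box CACGTG, the motif that BMAL1 binds together with CLOCK, which reads the same on both strands. It was present in the Ass1 promoter (chr2:31470020-31470319, plus strand), beginning 36 bases before the start, and in that of one Slc25a15 start (chr8:22398228-22398527, minus strand), beginning 77 bases before it. The letters were not in the windows of Nags, Otc (chrX:10252055-10252354, plus strand) or the other Slc25a15 start, and 7.15% of 32851 promoters held them. The 2 promoters with the motif are shown because the study concerns its binding factor, and the Otc promoter because it is the most AT-rich of them; capitals mark the E-box.
Ass1: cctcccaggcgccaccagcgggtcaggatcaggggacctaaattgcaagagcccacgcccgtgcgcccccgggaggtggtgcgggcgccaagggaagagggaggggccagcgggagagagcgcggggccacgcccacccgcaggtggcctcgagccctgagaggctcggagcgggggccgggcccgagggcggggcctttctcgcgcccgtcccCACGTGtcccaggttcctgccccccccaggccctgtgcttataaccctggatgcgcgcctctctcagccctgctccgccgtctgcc
Slc25a15: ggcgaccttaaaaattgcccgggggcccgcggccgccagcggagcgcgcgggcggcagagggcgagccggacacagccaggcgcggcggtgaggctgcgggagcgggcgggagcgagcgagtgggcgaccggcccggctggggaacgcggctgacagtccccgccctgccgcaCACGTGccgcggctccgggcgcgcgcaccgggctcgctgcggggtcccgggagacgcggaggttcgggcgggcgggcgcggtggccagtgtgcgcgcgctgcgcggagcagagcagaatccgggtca
Otc: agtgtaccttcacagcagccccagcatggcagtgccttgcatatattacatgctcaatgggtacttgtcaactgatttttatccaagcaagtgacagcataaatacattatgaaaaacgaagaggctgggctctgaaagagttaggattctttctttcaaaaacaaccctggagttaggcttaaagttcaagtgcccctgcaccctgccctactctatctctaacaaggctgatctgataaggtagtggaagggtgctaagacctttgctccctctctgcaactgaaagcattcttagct
The GC content of these windows was 74% for Ass1, 79% for this Slc25a15 start and 44.3% for Otc, against a median of 52.7% over all promoters. A motif match is a description of the sequence and no evidence of binding.

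All 7 genes were highly expressed and passed the filter on low counts. The level per length of transcript, in CPM per kilobase as a median, was highest for Arg1 (1318 in KO, 1377 in WT). Ass1 (534 in KO, 747 in WT), Cps1 (514 in KO, 585 in WT) and Asl (302 in KO, 420 in WT) came next. Otc (179 in KO, 151 in WT) and Slc25a15 (115 in KO, 124 in WT) were lower, and Nags, whose enzyme makes a regulator rather than a bulk intermediate, was lowest (32.1 in KO, 33.5 in WT). The ranges of neighbouring genes in this order overlapped over the mice, except that Nags reached at most 48.5 in KO and 56.4 in WT while Slc25a15 began at 70.2 in KO and 75.0 in WT. Together the 7 genes took 0.439% to 1.99% of a library's counts, with a median of 0.814%.

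**Figure D1:**
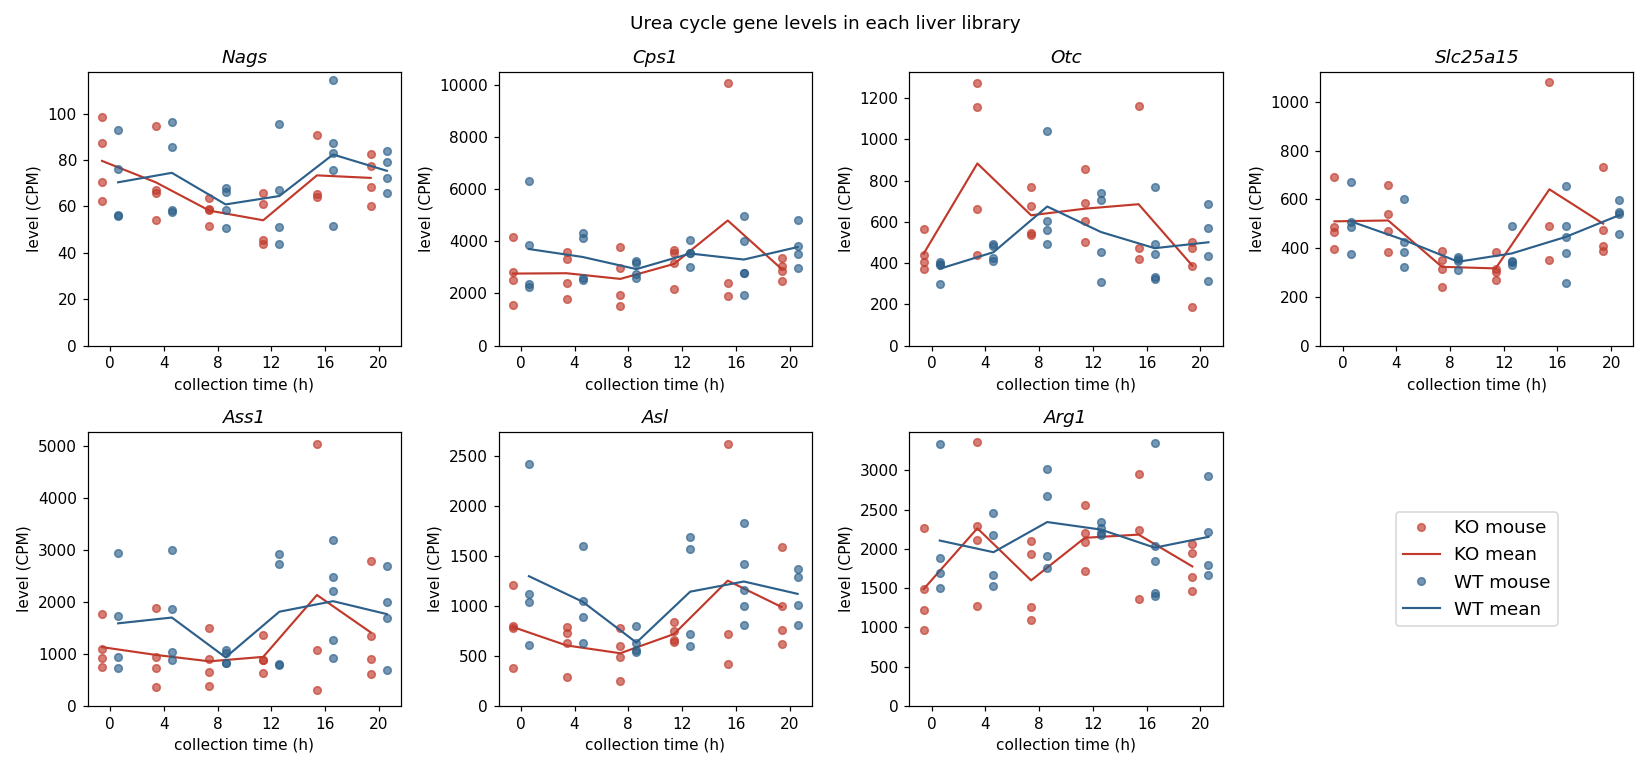
Level of each urea cycle gene in CPM (vertical axes, from 0) against collection time in hours, 1 point per mouse and lines through the group means, KO drawn left of WT at each time. Mice of the same genotype and time lie far apart for Ass1 and Asl, and a single KO mouse at 16 h has the highest Cps1, Slc25a15, Ass1 and Asl.

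No urea cycle gene differed between the genotypes across the 6 times by edgeR's quasi-likelihood test with Benjamini-Hochberg adjustment over 13646 genes, of which 1.4% passed. The 7 differences ran from −0.43 to 0.26 on the log2 scale (KO minus WT), with a median of −0.15 against −0.00 over all genes tested. They were negative for 5 genes and positive for Otc and Slc25a15. The largest negative ones were in Asl and Ass1, which act in succession in the cytosol. In bulk liver, fewer cells that express a gene and less RNA per cell cannot be told apart.

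Nags (ENSMUSG00000048217, mm9 chr11:102006827-102010791) was at 43.9 to 98.3 CPM in KO (median 65.2) and at 43.9 to 114 CPM in WT (median 67.9). Its difference of −0.08 ± 0.09 (log2, SE) did not pass (edgeR adjusted p = 0.662), and 15 of 23 KO mice lay below the WT median. Its sign turned to 0.18 ± 0.08 (edgeR adjusted p = 0.248) once the GC trend of each library, described below, was taken out. The gene overlaps Gm11586, which had at most 26 counts. The name of the deposited counts includes the word sense, but the sources used here do not describe how strand was used. The reads of these overlapping genes therefore cannot be told apart with certainty.

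Cps1 (ENSMUSG00000025991, mm9 chr1:67169600-67277833), the rate-controlling enzyme of the cycle, was at 1536 to 10062 CPM in KO (median 2854) and at 1940 to 6303 CPM in WT (median 3249). It was below the lowest WT mouse in 5 KO mice and above the highest in 1, KO_16h replicate 2. The difference was −0.15 ± 0.15 (edgeR adjusted p = 0.592), and −0.35 ± 0.13 without that mouse, which also did not pass (0.124).

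Otc (ENSMUSG00000031173, mm9 chrX:9829431-9898150) was at 187 to 1273 CPM in KO (median 536) and at 297 to 1042 CPM in WT (median 453). Of the 7 genes it had the largest positive difference, 0.26 ± 0.14, which did not pass (edgeR adjusted p = 0.319). With the GC trend of each library removed it was 0.10 ± 0.08 (edgeR adjusted p = 0.573), below the 0.18 of Nags. Only 7 of 23 KO mice lay below the WT median, and 3 lay above the highest WT mouse.

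The difference in Otc was largest at 4 h. Its level there was 439, 664, 1157 and 1273 CPM in the 4 KO mice, against 424, 481, 495 and 412 CPM in the 4 WT mice. KO replicates 3 and 4 stood far above every WT mouse of that time, replicate 2 moderately so, and replicate 1 lay inside the WT range. In the 4 pairs of mice with the same replicate number, taken as paired at this time, the KO mouse was higher in all 4 for Otc and for Slc25a15, and lower in all 4 for Asl and Cps1. The share of all genes with the same direction in all 4 pairs was not counted, and the pairing itself was read from these data. With the replicate block none of these 4 genes passed by edgeR: the change of Otc was 0.84 ± 0.33 (adjusted p = 0.152) and that of Asl −0.81 ± 0.37 (adjusted p = 0.187). Without the block the change of Otc was 0.96 ± 0.33 (edgeR adjusted p = 0.132), at a time when 23.3% of all genes had an unadjusted p under 0.05 and 0.0366% passed after adjustment. Without KO_4h replicate 1 it was 1.19 ± 0.34 and passed (edgeR adjusted p = 0.0178), as did 3354 genes. With the GC trend of each library removed it was 0.37 ± 0.20 (edgeR adjusted p = 0.291). The GC slopes of the 4 KO libraries at 4 h were 0.50, −0.35, −0.81 and −0.69 log2 units per 10 percentage points of GC, in replicate order, against 0.54, 0.34, 0.01 and −0.02 in WT.

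Slc25a15 (ENSMUSG00000031482, mm9 chr8:23486026-23509093), the ornithine carrier, was at 241 to 1082 CPM in KO (median 396) and at 257 to 673 CPM in WT (median 424). Its difference of 0.05 ± 0.11 did not pass by edgeR, and was −0.05 ± 0.10 without KO_16h replicate 2.

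Ass1 (ENSMUSG00000076441, mm9 chr2:31325727-31376192) was the most variable of the 7. KO mice had 741, 922, 1762 and 1090 CPM of Ass1 at the 0 h collection; at 4 h their levels were 1888, 726, 371 and 933, and at 8 h 1502, 644, 898 and 379. Later KO mice had 889, 888, 631 and 1358 (12 h), 1065, 5022 and 302 (16 h), and 2788, 905, 609 and 1345 CPM (20 h). The KO mice of 16 h thus held both the highest and the lowest Ass1 of the study. WT mice had 1728, 2943, 737 and 934 CPM at the 0 h collection; at 4 h their levels were 1867, 2991, 889 and 1041, and at 8 h 1019, 814, 1073 and 823. Later WT mice had 805, 782, 2731 and 2916 (12 h), 2473, 925, 2208, 3183 and 1267 (16 h), and 2001, 680, 1691 and 2679 CPM (20 h). The genotypes overlapped at every time, with 6 of 23 KO mice below the lowest WT mouse of all times and 1 above the highest.

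The difference in Ass1 was −0.43 ± 0.24 and did not pass (edgeR adjusted p = 0.361), nor did it without KO_16h replicate 2 (−0.71 ± 0.23, adjusted p = 0.0764). With the GC trend of each library removed it was −0.33 ± 0.20 (edgeR adjusted p = 0.433). Ass1 shares 911 windows of 50 bases, or 55.3% of those in its transcripts, with Gm5424, which had 21 to 522 counts per library against 3699 to 57750 for Ass1. Reads from these stretches may be split between the 2 genes.

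Asl (ENSMUSG00000025533, mm9 chr5:130487128-130501002), which releases arginine and fumarate, was the gene nearest to a call across times while the GC trend was left in. KO mice had 375, 1210, 778 and 801 CPM of Asl at the 0 h collection; at 4 h their levels were 786, 728, 285 and 625, and at 8 h 781, 486, 596 and 247. Later KO mice had 658, 842, 636 and 746 (12 h), 721, 2625 and 420 (16 h), and 1594, 759, 616 and 998 CPM (20 h). Replicate 2 of 16 h was far above the other KO mice. WT mice had 1046, 2427, 607 and 1120 CPM at the 0 h collection; at 4 h their levels were 889, 1600, 634 and 1052, and at 8 h 632, 564, 800 and 542. Later WT mice had 723, 597, 1569 and 1689 (12 h), 1421, 1164, 1001, 1836 and 810 (16 h), and 1013, 815, 1368 and 1295 CPM (20 h). The genotypes overlapped, but 20 of 23 KO mice lay below the WT median of 1013 CPM.

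Asl averaged 796 ± 492 CPM in KO (SD, n = 23) and 1089 ± 471 CPM in WT (SD, n = 25). The difference of −0.43 ± 0.18 had an unadjusted edgeR p of 0.0204, at which level 17.1% of all genes fell under 0.05, and an adjusted p of 0.211. It passed in 2 of 56 alternative settings: without KO_16h replicate 2 (−0.63 ± 0.17, edgeR adjusted p = 0.0310) and without the 3 libraries that stood apart (−0.70 ± 0.16, adjusted p = 0.0106). That mouse is one of the 3, so both settings turn on the same library. With the GC trend of each library removed the Asl difference was −0.32 ± 0.16 (edgeR adjusted p = 0.318). In that setting Nags had the lowest edgeR adjusted p of the urea cycle genes (0.248). With the replicate block applied at every time as well, the lowest was again that of Asl (−0.38 ± 0.11, edgeR adjusted p = 0.0931), which did not pass. The replicate numbers were taken to pair mice at 4 h only.

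Arg1 (ENSMUSG00000019987, mm9 chr10:24635014-24647276), which cleaves arginine to urea and ornithine, was at 972 to 3365 CPM in KO (median 1947) and at 1403 to 3346 CPM in WT (median 2033). It was below the lowest WT mouse in 6 of 23 KO mice, and its difference of −0.18 ± 0.12 did not pass (edgeR adjusted p = 0.438).

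**Figure D2:**
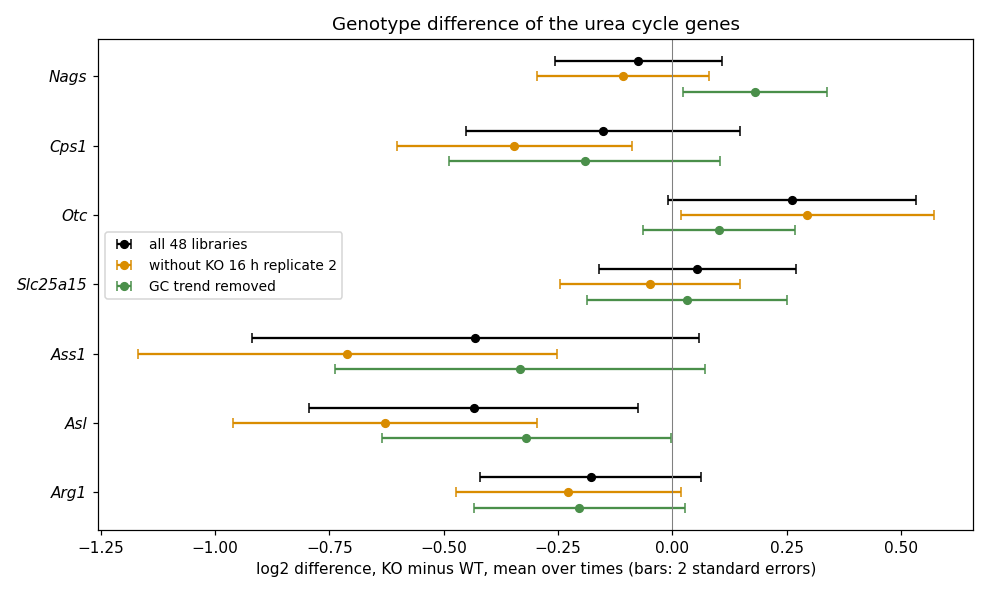
Difference between KO and WT of each urea cycle gene on the log2 scale (horizontal axis, KO minus WT, mean over the 6 times), with bars of 2 standard errors on either side, over all 48 libraries (black), without KO_16h replicate 2 (orange) and with the GC trend of each library removed (green). Asl passes the adjusted test in the orange setting at −0.63; no gene passes in the others drawn.

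At single times no urea cycle gene passed by edgeR, with 1 unadjusted p under 0.05, that of Otc at 4 h; the share of all genes called was 0.0147% at 0 h, 0.022% at 16 h and 0.0% at 8, 12 and 20 h. Of the 7 differences 5 were negative at 0 h (median −0.42) and 4 at 4 h (median −0.08). All 7 were negative at 8 h (median −0.12) and at 20 h (median −0.28), and 6 of 7 at 12 h (median −0.25). The medians over all genes were 0.004 at 8 h, −0.011 at 20 h and −0.015 at 12 h, and the share of negative differences over all genes was not counted. Several of the 7 genes varied together between mice, as given below, so their signs are not separate results. At 16 h 6 of 7 were positive (median 0.11), and without KO_16h replicate 2, 6 of 7 were negative (median −0.35). Cps1, for instance, was at 2411, 10062 and 1910 CPM in the KO mice of 16 h and at 4007, 4962, 2792, 2792 and 1940 CPM in the WT mice. The interaction of genotype and time passed for no urea cycle gene by edgeR (lowest unadjusted p 0.101, Otc), and for 0.00733% of all genes. DESeq2 also called no urea cycle gene across times, at any single time or for the interaction.

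Slc25a15 was the urea cycle gene that changed over time (edgeR adjusted p = 0.00824, time tested in a model with genotype), among 30.4% of all genes. KO mice had 396, 692, 486 and 467 CPM at 0 h, then 388, 315, 351 and 241 CPM at 8 h, and 384, 313, 271 and 301 at 12 h. WT mice had 310, 355, 366 and 347 CPM at 8 h, and 596, 541, 548 and 457 at 20 h. The 8 h and 12 h mice of KO thus all lay below the 0 h mice, and the 8 h mice of WT below the 20 h mice, groups picked for display after their values were seen. The call held without any single library (adjusted p 0.0025 to 0.0171).

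A 24 h harmonic fitted to Slc25a15 had an amplitude, from mean to peak, of 0.37 log2 units in KO with a peak at 21.8 h, and 0.31 in WT with a peak at 21.5 h. The rhythm test passed narrowly in KO (edgeR adjusted p = 0.0487, as for 17.0% of all genes) and did not in WT (0.110, with 16.3% of all genes called). The KO call was lost in 35 of 54 alternative settings, with an adjusted p of up to 0.122 without KO_20h replicate 1, and the WT rhythm passed without KO_16h replicate 2 (0.0405). The rhythm difference between KO and WT did not pass for Slc25a15 (edgeR adjusted p = 1.00, unadjusted p = 0.893) or for any other urea cycle gene, and 0.00733% of all genes passed.

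The other 6 genes did not pass for change over time by edgeR (adjusted p from 0.0656 for Asl to 0.804 for Arg1) or for rhythm in either genotype. Asl (amplitude 0.48 with a peak at 18.4 h in KO, 0.35 at 19.5 h in WT) and Ass1 (0.35 at 19.2 h in KO, 0.31 at 18.4 h in WT) had their fitted peaks late in the series. Otc had its fitted peak earlier, at 8.2 h in KO (amplitude 0.44) and at 10.0 h in WT (0.26). Amplitudes of Arg1 (0.16 in KO, 0.08 in WT) were small. The series covers less than 1 full cycle, so these peaks were seen once.

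Mice of the same genotype and time differed more in the urea cycle genes, except Nags, than in most highly expressed genes. The GC trend of each library, described below, was left in for this comparison. The SD within groups was 0.90 log2 units for Ass1, a spread exceeded by 2.27% of the 2865 genes averaging 50 CPM or more, whose median was 0.33. It was 0.65 for Asl (exceeded by 6.53%), 0.53 for Cps1 (12.8%), 0.49 for Otc (16.7%), 0.42 for Arg1 (27.1%) and 0.37 for Slc25a15 (37.9%). Nags, at 0.32, was near the middle. The highest mouse had 16.6 times the level of the lowest for Ass1, 10.6 times for Asl and 2.61 times for Nags.

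Several of the genes varied together. Of 21 pairs, 15 correlated in their deviations from group means over the 48 libraries (permutation test with 100000 shuffles within groups, two-sided, adjusted over the 21 pairs), 12 positively and 3 negatively. How many pairs of other genes would pass the same test was not examined. The count is therefore not shown to be particular to the urea cycle genes. The consecutive enzymes Ass1 and Asl had r = 0.86 and rho = 0.80 (permutation p = 1e-05 each, the smallest the shuffles can give, adjusted p = 3.5e-05 and 4.2e-05), and r = 0.81 without the 2 mice farthest out. The correlation was 0.88 within KO and 0.83 within WT. Cps1 and Slc25a15 had r = 0.80 and rho = 0.78 (permutation p = 1e-05 each, adjusted p = 3.5e-05 and 4.2e-05), with r = 0.77 without the 2 farthest mice. These 2 genes were also close in each genotype (r = 0.81 in KO, 0.80 in WT).

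Cps1 further varied with Asl (r = 0.76, rho = 0.69) and with Arg1 (r = 0.75, rho = 0.79), each at a permutation p of 1e-05. Without the 2 farthest mice r was 0.68 and 0.82 in these pairs. Slc25a15 varied with Asl (r = 0.71, rho = 0.70, permutation p = 1e-05 and 2e-05, r = 0.66 without the 2 farthest). Ass1 varied with Nags (r = 0.70, rho = 0.74, permutation p = 1e-05 each, r = 0.68 without the 2 farthest), although the libraries held far fewer Nags counts. Cps1 and Ass1 had r = 0.52 (permutation p = 0.011, adjusted p = 0.021) and r = 0.33 without the 2 farthest mice, which include KO_16h replicate 2.

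Otc went the other way from Ass1, Asl and Nags. Its deviations correlated negatively with those of Ass1 (r = −0.60, rho = −0.54, permutation p = 0.00079 and 0.0013, adjusted p = 0.0021 and 0.0034), with r = −0.51 without the 2 farthest mice and −0.61 in KO and −0.57 in WT. The pairs of Otc with Asl (r = −0.41, rho = −0.39, permutation p = 0.023 and 0.022, adjusted p = 0.0336 and 0.0355) and with Nags (r = −0.37, rho = −0.32, permutation p = 0.024 and 0.046, adjusted p = 0.0336 and 0.0644) lay nearer the threshold. For Nags and Otc rho did not pass, and each of these 2 calls by r was lost in 8 of the 48 settings with a library left out. Otc and Arg1 correlated positively (r = 0.45, rho = 0.43, permutation p = 0.0054 and 0.0076).

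**Figure D3:**
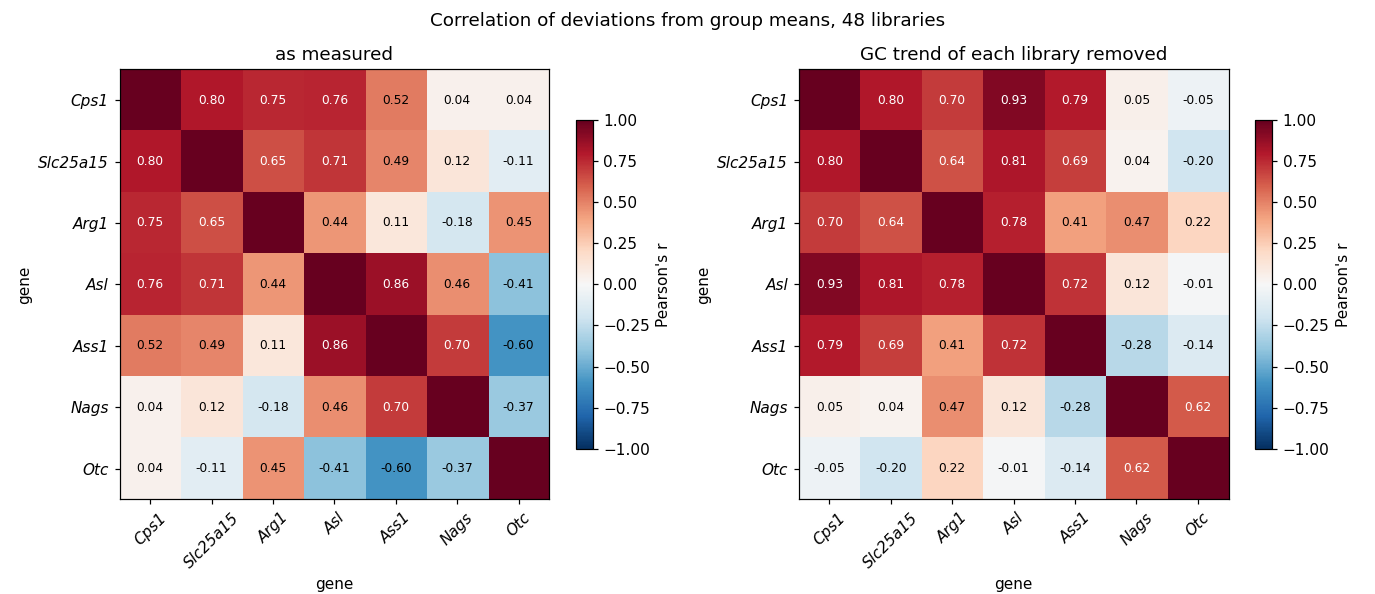
Pearson's r of log2 deviations from group means for each pair of urea cycle genes over 48 libraries, as measured (left) and with the GC trend of each library removed (right), on a colour scale from −1 to 1. The block of Cps1, Slc25a15, Arg1, Asl and Ass1 is positive in both panels, while the negative values of Otc with Ass1 (−0.60) and Asl (−0.41) are near 0 on the right.

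The libraries differed in how levels depended on the GC content of transcripts, and this moved with several of these genes. Slopes against GC were taken of log2 levels minus each gene's mean over all libraries, so they are relative to the average library. In log2 units per 10 percentage points, they ran from −0.81 to 0.63 in KO (median −0.11) and from −0.66 to 0.61 in WT (median 0.06). By transcript GC the genes ranked from Otc (41.1%) through Cps1 (46.6%), Arg1 (47.7%), Slc25a15 (47.7%), Ass1 (54.7%) and Asl (55.5%) to Nags (60.1%). Over the 48 libraries the deviations of Otc had r = −0.82 with the slope, those of Arg1 −0.48, those of Cps1 −0.07 and those of Slc25a15 0.00. The GC-rich genes had positive values, 0.77 for Ass1, 0.73 for Nags and 0.49 for Asl. These are descriptions, as genes and slopes come from the same libraries.

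**Figure D4:**
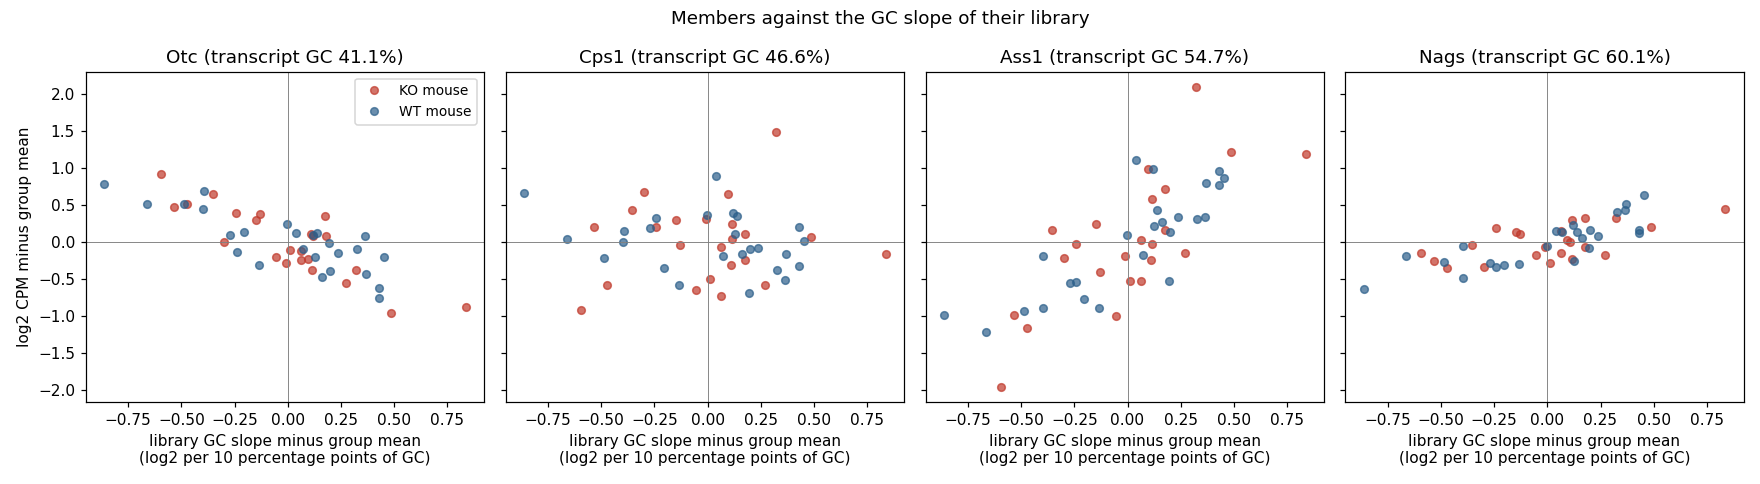
Log2 deviation of Otc, Cps1, Ass1 and Nags from their group means (vertical axis) against the GC slope of the library minus its group mean (horizontal axis, log2 units per 10 percentage points of GC), 1 point per mouse in KO (red) and WT (blue). Otc, with 41.1% GC, falls with the slope (r = −0.82), Ass1 and Nags climb (r = 0.77 and 0.73), and Cps1 shows no trend (r = −0.07).

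With the GC trend of each library removed, 12 pairs correlated and 0 of them negatively; 9 pairs were called with the same sign as before. Cps1 and Asl then had r = 0.93, Slc25a15 and Asl 0.81, Cps1 and Slc25a15 0.80, Cps1 and Ass1 0.79, Asl and Arg1 0.78, and Ass1 and Asl 0.72. Otc and Ass1 were at r = −0.14 (permutation p = 0.50) and Otc and Asl at −0.01 (permutation p = 0.96), so these negative relations were seen only with the trend in place. Nags and Otc turned to r = 0.62 (permutation p = 6e-05), and Nags and Ass1 to −0.28 (permutation p = 0.18). Otc and Arg1 (r = 0.22, permutation p = 0.21) and Nags and Asl (r = 0.12, permutation p = 0.52) also lost their calls. Removing the trend lowered the SD within groups of Otc to 0.29 and left that of Cps1 at 0.53. Whether the slopes arose in the libraries or in the livers was not tested.

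The genes whose levels were most like those of the urea cycle genes over the 48 libraries were described by r of log2 levels among 11986 genes. Neither group means nor the GC trend of each library were taken out for this. The values were not repeated with the trend removed. Closest to Ass1 were Gm5424 (0.96), with which it shares sequence, Pnpla2 (0.89), encoding a triglyceride lipase, and Abcd4 (0.88). Closest to Asl were Ass1 (0.87), Gm5424 (0.87) and Got1 (0.86), the cytosolic aspartate aminotransferase. Closest to Otc were Ugt2a3, Atg3 (0.93 each) and Rgn (0.92), to Cps1 Crcp (0.77), Eif4ebp3 (0.76) and Asl (0.75), and to Arg1 Crcp (0.82), Tdo2 (0.76) and Pptc7 (0.73). Nags was closest to Thap4 (0.87), Zdhhc7 (0.86) and Aldh2 (0.85), and Slc25a15 to Nnmt (0.82), Arl15 (0.80) and Ei24 (0.77).

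Genes that feed or use the cycle gave few genotype calls. Of 17 tested genes that break amino acids down to ammonia, Sds, serine dehydratase, fell in KO. It was at 53.7 to 477 CPM in KO, with a mean of 154 ± 99 CPM (SD, n = 23), and at 108 to 506 CPM in WT, with a mean of 265 ± 115 CPM (SD, n = 25). Its change of −0.80 ± 0.19 (edgeR adjusted p = 0.0238) held in all 56 alternative settings (changes between −0.99 and −0.72 with a library left out). Of 12 tested genes of arginine and ornithine handling, Odc1, ornithine decarboxylase, fell, at 59.9 ± 14.4 CPM in KO (SD, n = 23) and 80.8 ± 25.5 CPM in WT (SD, n = 25). Its change was −0.41 ± 0.10 (edgeR adjusted p = 0.0230), and the call was lost without KO_16h replicate 3 (adjusted p = 0.0598) and without both 16 h groups (0.0971).

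No gene passed across times by edgeR among 17 tested genes of ammonia, glutamate and aspartate supply (median difference −0.10, 7 positive) or among 10 regulators of urea cycle transcription known from rodent liver (median −0.04, 3 positive). Of the periportal genes, which share the region of the lobule where the cycle is most active, 1 of 9 tested had a positive difference and the median was −0.31, with Sds the one call. Of 12 pericentral genes 8 were positive, with a median of 0.14 and 0 calls. These lists were chosen with results of these data known, and their calls were read against 1.4% over all genes. The share of positive differences over all genes was not counted, and the sign counts were not repeated with the GC trend removed. A shift between zones of the lobule was not tested.

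Of the 17 genes that break amino acids down, 6 passed for rhythm in KO, 4 in WT and 8 for change over time by edgeR, against 17.0%, 16.3% and 30.4% of all genes. Gldc, of the glycine cleavage system, had an amplitude of 1.17 log2 units with a peak at 21.5 h in KO (adjusted p = 8.1e-07) and 1.03 at 22.6 h in WT (6.6e-06). Hal, histidine ammonia lyase, had an amplitude of 0.29 in KO (adjusted p = 0.202) and 0.78 with a peak at 1.09 h in WT (1.0e-04), and its rhythm difference did not pass. Of the 10 regulators, 6 changed over time, 3 passed for rhythm in KO (Foxo1, Hnf4a and Creb3l3) and 3 in WT (Foxo1, Klf15 and Cebpb). Foxo1, a transcription factor restrained by insulin, had an amplitude of 0.55 at 15.3 h in KO (adjusted p = 1.4e-04) and 0.62 at 15.2 h in WT (7.9e-06). Klf15, which activates amino acid breakdown, had 0.21 in KO (adjusted p = 0.140) and 0.37 at 13.4 h in WT (0.0123). In arginine handling, Azin1, an inhibitor of antizyme, had 0.37 at 9.55 h in KO (adjusted p = 0.0414) and 0.35 in WT (0.0529). Its KO call was lost in 18 of 54 alternative settings, and 2 of the 12 genes of this list changed over time. Of the 17 supply genes, Slc25a22, a mitochondrial glutamate carrier, passed for rhythm in KO (edgeR adjusted p = 0.0331). Slc25a12, a mitochondrial aspartate and glutamate carrier, passed for change over time (0.0366) but for rhythm in neither genotype (0.853 in KO, 0.0859 in WT). Odc1 (edgeR adjusted p = 0.362 in KO, 0.0668 in WT) and the alanine aminotransferase gene Gpt2 (0.269 in KO, 0.128 in WT) also passed for rhythm in neither genotype. Among zonal genes, periportal Sox9 (amplitude 0.62 in KO, 0.64 in WT) and pericentral Lect2 (0.60 in KO, 0.57 in WT) passed in both genotypes. Lgr5, a Wnt pathway receptor of pericentral cells, had an amplitude of 0.44 in KO (edgeR adjusted p = 0.0785) and 0.61 in WT (5.4e-04).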

How the data were processed

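The authors deposited whole-number read counts per gene for 48 liver libraries. CASAVA, STAR 2.4.1d and the mouse build mm9 are named in the submitters' processing notes. The sources used here do not state how reads were assigned to genes or whether depth was equalised. The name of the deposited counts includes the word sense, and how strand was used is not described. The near-equal totals do not show equal sequencing depth. Albumin, stored as multiples of 1311.61, was left out of totals and tests.

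Counts were tested with edgeR 4.0.16 (R 4.3.3), quasi-likelihood, TMM scaling, and filterByExpr over 12 groups (minimum count 10), keeping 13646 genes. Differences are means of KO minus WT contrasts in a model of 12 group means; rhythm used a 24 h cosine and sine per genotype. Adjusted p-values are Benjamini-Hochberg over all genes, with a threshold of 0.05. CPM values are counts scaled with TMM factors, and log2 values for correlations and amplitudes have a prior count of 2. The GC trend is a spline of log2 level, relative to each gene's mean, on transcript GC. It was fitted per library over genes with a GC value and a mean of at least 1 CPM. For the 13316 genes (97.6%) with a GC value it was removed, as an offset in tests and by subtraction for correlations. This setting was added after seeing the data.

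The labels give replicate numbers without saying what these stand for. Deviations from group means over 2000 genes correlated above 0.1 in 13 of 23 pairs with the same number, and in all 4 pairs at 4 h (0.231 to 0.460), so the numbers were taken to pair mice at 4 h only. Mice with different numbers were not compared in this way, so these values cannot show that the numbers mark pairs. No 2 libraries of a group agreed within sampling noise (lowest chi-square per degree of freedom 20.7). Named genes are the 7 members, Arntl, list genes past a genotype test, the 2 of each list with the lowest rhythm p in WT and the 3 genes most like each member. The members, lists and most alternatives (DESeq2 1.42.0, RLE factors, no filter, replicate block, libraries left out) were chosen with earlier results of these data known.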

Additional observations from a re-analysis of the deposited data

Results flagged for a closer look

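Of 77 groups of 4 or 5 mice tested over the 7 urea cycle genes, 2 held a mouse whose gap to the nearest other exceeded Dixon's 95% critical value. Chance flags about 1 in 20 groups. Otc was at 297 CPM in WT_0h replicate 3, the library with adrenal transcripts, against 393 to 404 CPM in the other 3 mice of the group. Slc25a15 was at 491 CPM in WT_12h replicate 4, against 330 to 349 CPM in the other 3. That library also had the highest summed level of 4 small intestine markers (3152 CPM, against a WT median of 460 CPM), mostly Apoa4, which liver expresses too, with 6 counts of Vil1 and 0 of Lct. The part of either in these values was not tested. The KO mice at 16 h, a group of 3, were not tested in this way.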

How the results depend on the processing

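The number of urea cycle genes called across times (0 of 7) was 0 to 1 with single libraries left out and 1 without the 3 libraries that stood apart (Asl in each case). At 4 h it was 0 to 1 (Otc without KO_4h replicate 1). The count for rhythm in WT was 0 to 1 with libraries left out and 1 without both 16 h groups. The count for rhythm in KO, 1 as reported, was 0 to 3 with libraries left out, 2 with DESeq2 or without both 16 h groups, and 0 with RLE size factors or no filter. The count for change over time, 1 as reported, was 1 to 3 with libraries left out, and 2 with DESeq2 or without both 16 h groups. Over all genes, 191 were called across times, against 356 with DESeq2, 122 with no filter, 99 without KO_16h replicate 3 and 484 without KO_4h replicate 1. At 4 h 5 were called, against 543 without both 16 h groups and 0 to 3354 with libraries left out.

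The Slc25a15 difference across times (0.055) turned to −0.075 without the 3 libraries that stood apart, −0.036 without both 16 h groups and −0.016 with the replicate block and GC trend removed together, and was −0.049 to 0.10 with single libraries left out. That of Nags (−0.08) turned to 0.18 with the GC trend removed and 0.16 with the block as well. At 16 h Cps1 (0.54) was −0.10 with the block, −0.14 with block and GC trend removed, −0.59 without the 3 libraries and −0.61 to 0.90 with single libraries left out. Ass1 at 16 h (0.08) was −0.72, −0.54, −1.54 and −1.56 to 0.59 in the same settings. At 16 h the block compares only mice with the same replicate number. WT replicates 4 and 5 have no KO partner there and do not enter it. Of the 3 pairs with the same number at 16 h, 0 correlated above 0.1 in their deviations from group means. The pairs Nags with Otc (r = 0.62) and Nags with Ass1 (r = −0.28) changed sign with the GC trend removed. Without the 3 libraries that stood apart, Cps1 with Ass1 (r = 0.34, permutation adjusted p = 0.075) lost its call. So did Slc25a15 with Ass1 (r = 0.36, permutation adjusted p = 0.075) and Asl with Arg1 (r = 0.28, permutation adjusted p = 0.154). The cause of these changes was not tested beyond the settings themselves.

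At 4 h the replicate block gave Otc a change of 0.84 (edgeR adjusted p = 0.152); across times it gave Asl −0.50 (0.146) and called 0 urea cycle genes. It changed no call of these genes across times, at single times or for the interaction, and it was not run for rhythm or change over time. The SD within groups of 3 to 5 mice, 0.32 (Nags) to 0.90 (Ass1) log2 units, limits the precision at single times.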
